A study of Mus musculus with 26 samples.

Results

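Early mouse blastomeres carry RNA for a set of transcription factors that later hold the epiblast and embryonic stem cells in a pluripotent state. The 8 factors described here were Pou5f1, Nanog, Sox2, Klf4, Klf5, Klf17, Esrrb and Sall4. They were chosen by name, and all 8 were found among the 55487 genes of the scRR-seq-RNA table. In scRR-seq, magnetic beads hold back chromatin after lysis and the RNA is taken from the supernatant, so that RNA and replication state are read in the same cell. The tables used here held 9 blastomeres of 2 mouse 8-cell embryos, 3 cells of embryo 1 (cells 1, 6 and 7) and 6 cells of embryo 2 (cells 2, 3, 5, 6, 7 and 8). Per the study's methods, oocytes and sperm were of the C57BL/6 strain, fertilization was in vitro, the blastomeres were separated by hand, and no allele or agent set the embryos apart. Each embryo is 1 biological replicate, so differences between embryos and between cells were described and not tested.

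POU5F1 (also called OCT4), SOX2 and NANOG bind many of the same enhancers, including their own, and POU5F1 and SOX2 often sit side by side on a joint octamer and Sox site. The Krüppel-like factors KLF4, KLF5 and KLF17 bind GC-rich and GT-rich elements, ESRRB is an orphan nuclear receptor, and SALL4 is a zinc-finger protein that works with the NuRD deacetylase complex. In the embryo these factors come on at different times. POU5F1 is present in all blastomeres before lineages separate, whereas SOX2 later marks the inner cells.

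Abundance was given as TPM, a measure of transcript abundance that is scaled to gene length and to the total RNA of a cell. Levels of different genes can be compared only as far as reads cover the transcripts evenly. A gene with TPM > 1 was counted as detected. The cells fell in a further way, because the number that closes each title ran from 11 to 17 in 3 cells (embryo 1 cell 1, embryo 2 cells 2 and 3) and from 20 to 25 in the other 6. The labels name no protocol version for a cell. The study's sample list gives the scRR3 version, with the larger lysis volume, for the cells numbered 11 to 17. Those numbered 20 to 25 are given as scRR1, so the number range and the version cannot be told apart. For embryos, the paper reports that scRR1 reads leaned to the 3' end of transcripts and that scRR1 detected fewer transcripts than scRR3. All 9 RNA columns are headed embryo 1 cell 7, and each was given to a cell by its closing number alone, so every statement that ties RNA to an embryo or to a replication state rests on that number. The mitochondrial genome took 4.28% to 6.77% of TPM in embryo 1 and 5.98% to 18.2% in embryo 2. The percentage replication score, the share of genomic bins called replicated, was between 0.00385% and 3.54% in embryo 1 and between 62.4% and 80.5% in embryo 2. Between the embryos, a difference in RNA can therefore not be told apart from one in replication state. The paper places representative cells of embryo 1 in G1 or G2/M phase, so its low scores need not mean unreplicated DNA.

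Of the 72 values of the 8 factors in the 9 cells, 63 were above TPM 1. All 7 factors other than Sox2 were detected in all 9 cells, as were 30.6% of the 21897 protein-coding genes. Sox2 was detected in none. The 7 detected factors fell into levels. Klf5, Pou5f1 and Sall4 had mean TPM values of 265 ± 89.2, 197 ± 70.7 and 174 ± 41.8 (SD, n = 9 cells), and each ranked above at least 89.8% of the genes detected in the same cell. Esrrb, Klf4, Nanog and Klf17 followed at 35.5 ± 8.46, 35.1 ± 10.2, 29.2 ± 22.7 and 20.8 ± 22.7 (SD, n = 9 cells). Only 1 step of this order among detected factors held in every cell. Sall4 was above Esrrb in 9 of 9 cells, with a mean gap of 2.27 on the log2(TPM + 1) scale (SD 0.49). Within the upper level, Klf5 exceeded Pou5f1 in 6 of 9 cells and Pou5f1 exceeded Sall4 in 6 of 9 cells, and the mean gaps of 0.43 and 0.14 were smaller than their SDs between cells of 0.71 and 0.49. Within the lower level, Esrrb exceeded Klf4 in 6 of 9 cells, Klf4 exceeded Nanog in 8 and Nanog exceeded Klf17 in 7, again with mean gaps smaller than their SDs. The highest factor was Klf5 in 6 cells and Pou5f1 in 3, and those 3 were the cells numbered 11 to 17.

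**Figure D1:**
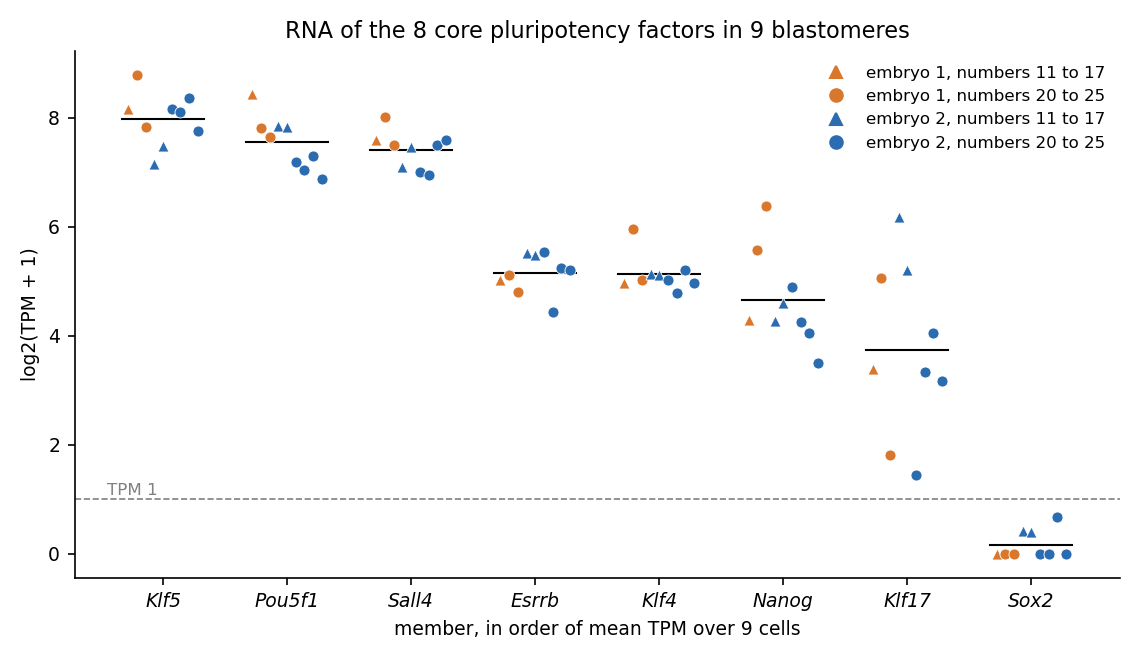
Each point is 1 blastomere, with log2(TPM + 1) on the vertical axis and the 8 factors on the horizontal axis in order of mean TPM. Black lines mark the mean of 9 cells and the dashed line marks TPM 1. Klf5, Pou5f1 and Sall4 lie together at the top, Klf17 spreads most widely, and Sox2 stays under TPM 1 in every cell.

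Pou5f1 (ENSMUSG00000024406.16, chr17:35506018-35510772, plus strand of GRCm38) encodes the POU-domain factor without which no pluripotent inner cell mass is kept. Its TPM in embryo 1 was 346 in cell 1, 226 in cell 6 and 199 in cell 7. In embryo 2 it was 231 and 227 in cells 2 and 3, and 145, 131, 156 and 117 in cells 5, 6, 7 and 8. The embryos overlapped, but the number ranges did not: the 3 cells numbered 11 to 17 lay at 227 TPM or above and the other 6 at 226 TPM or below. On the log2(TPM + 1) scale the lower numbers exceeded the upper by 0.73, with a pooled SD between cells of 0.35. Of 6860 genes whose mean log2(TPM + 1) reached 3, 8.85% were above in every cell numbered 11 to 17 and 2.33% were below. The median difference over these genes was 0.27, in the same direction as for Pou5f1. Pou5f1 was the only 1 of the 7 factors in this set whose cells did not overlap between the ranges.

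Nanog (ENSMUSG00000012396.12, chr6:122707489-122714633, plus strand) encodes the homeodomain factor that marks the epiblast once it separates from primitive endoderm. In embryo 1 its TPM was 18.6 in cell 1, 46.7 in cell 6 and 83.0 in cell 7. In embryo 2 it was 18.3, 23.3, 29.0, 18.1, 15.7 and 10.3 in cells 2, 3, 5, 6, 7 and 8. The highest values were thus in embryo 1 cells 6 and 7, while embryo 1 cell 1 was as low as embryo 2. The highest cell held 8.05 times the TPM of the lowest.

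Sox2 (ENSMUSG00000074637.7, chr3:34650405-34652461, plus strand) encodes the HMG-box partner of POU5F1. It was listed at 0 in all 3 cells of embryo 1 and in cells 5, 6 and 8 of embryo 2, and at 0.34, 0.32 and 0.60 TPM in cells 2, 3 and 7 of embryo 2. TPM values do not keep the read depth, so a detection limit cannot be given. Sox2 lies inside the long non-coding gene Sox2ot on the same strand, which was listed above 0 in 1 cell, at 0.48 TPM.

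Among the 3 Krüppel-like factors, Klf5 (ENSMUSG00000005148.8, chr14:99298691-99315036, plus strand) was the most abundant. KLF5 is needed in the mouse for both trophectoderm and inner cell mass. Klf5 TPM was 288, 443 and 228 in cells 1, 6 and 7 of embryo 1, and 141, 178, 284, 275, 331 and 215 in cells 2, 3, 5, 6, 7 and 8 of embryo 2. Cells 2 and 3 of embryo 2, both numbered 11 to 17, held its 2 lowest values. Klf4 (ENSMUSG00000003032.8, chr4:55527143-55532466, minus strand), 1 of the factors used to reprogram somatic cells, was nearly flat. Its TPM was 30.3, 61.3 and 31.6 in embryo 1, and 34.2, 33.5, 31.8, 26.8, 36.1 and 30.4 in embryo 2, so that embryo 1 cell 6 stood above 8 cells between 26.8 and 36.1. Klf17 (ENSMUSG00000048626.5, chr4:117757836-117765648, minus strand), a maternally supplied factor of the early cleavage stages, varied most. Its TPM was 9.48, 32.6 and 2.53 in embryo 1 and 71.8, 35.9, 1.72, 9.13, 15.6 and 8.07 in embryo 2. The highest value was 41.8 times the lowest, and both came from embryo 2.

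Esrrb (ENSMUSG00000021255.17, chr12:86361117-86521628, plus strand) encodes a nuclear receptor that sustains self-renewal of mouse embryonic stem cells downstream of NANOG. Its TPM was 31.7, 33.5 and 26.8 in embryo 1 and 44.7, 43.7, 45.6, 20.6, 36.9 and 35.9 in embryo 2. Embryo 2 held both the highest cell (cell 5) and the lowest (cell 6). Sall4 (ENSMUSG00000027547.17, chr2:168748332-168767943, minus strand) had TPM values of 192, 258 and 181 in embryo 1 and 137, 177, 128, 123, 181 and 193 in embryo 2. The embryos overlapped, with embryo 1 cell 6 highest and embryo 2 cell 6 lowest.

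The spread between cells differed among the factors even where their levels were alike. Klf4 and Esrrb had SDs of 0.33 and 0.36 on the log2(TPM + 1) scale, where the 1318 genes with means between 5 and 6 had a median SD of 0.61. Only 4.78% of those genes varied less than Klf4 and 7.36% less than Esrrb. The SD of Sall4 was 0.34 beside a median of 0.47 over 485 genes between 7 and 8, and Pou5f1 and Klf5, at 0.49 each, lay close to that median. Nanog, with an SD of 0.87, varied more than 72.6% of 1762 genes of its level, and Klf17, with 1.56, varied more than 90.3% of 1887. These shares describe the 9 cells and were not tested.

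The first comparison the design implies is between the embryos. Over the 8 factors, the median of mean log2(TPM + 1) in embryo 2 minus that in embryo 1 was -0.35, beside an SD between cells of 0.32 and a median of -0.04 over 13612 nuclear genes with a mean TPM above 1. Nanog differed most, at -1.15 with a pooled SD of 0.70, and its mean went from 49.4 ± 32.3 TPM in embryo 1 to 19.1 ± 6.41 TPM in embryo 2 (SD, n = 3 and 6 cells). Pou5f1 and Sall4 were also lower in embryo 2 by more than their pooled SDs. Pou5f1 differed by -0.62 (pooled SD 0.41), from 257 ± 78.1 to 168 ± 49.0 TPM (SD, n = 3 and 6 cells). Sall4 differed by -0.43 (pooled SD 0.28), from 210.3 ± 41.7 to 156 ± 30.6 TPM (SD, n = 3 and 6 cells). The differences of Klf5 (-0.43), Klf4 (-0.27), Esrrb (0.26) and Klf17 (0.48) were smaller than their pooled SDs of 0.47, 0.32, 0.36 and 1.65.

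No factor was separated between the embryos in all 9 cells. Of the same 6860 genes, 2.57% were lower in every cell of embryo 2 than in every cell of embryo 1 and 1.14% were higher, and 0 of the 7 factors in that set were in either group. Within the cells numbered 20 to 25 the picture differed. There Pou5f1 (199 and 226 TPM in embryo 1, at most 156 in embryo 2) and Nanog (46.7 and 83.0 TPM in embryo 1, at most 29.0 in embryo 2) did not overlap. That is 2 of 7 factors lower in every embryo 2 cell, beside 9.66% of the 6860 genes, and none higher, beside 7.38%. In the cells numbered 11 to 17, the Nanog difference was 0.14 instead of -1.80 within 20 to 25, whereas Pou5f1 differed by -0.59 and -0.63 and Sall4 by -0.31 and -0.49 within the 2 ranges. The lower range held only 1 cell of embryo 1. The mitochondrial share was higher in embryo 2 cells numbered 20 to 25, and with TPM rescaled without mitochondrial genes the differences were -1.07 for Nanog, -0.52 for Pou5f1 and -0.33 for Sall4. Without embryo 1 cell 7 the Nanog difference was -0.67, without embryo 1 cell 1 that of Pou5f1 was -0.38, and without embryo 1 cell 6 that of Sall4 was -0.27 and the median over the 8 factors -0.06.

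**Figure D2:**
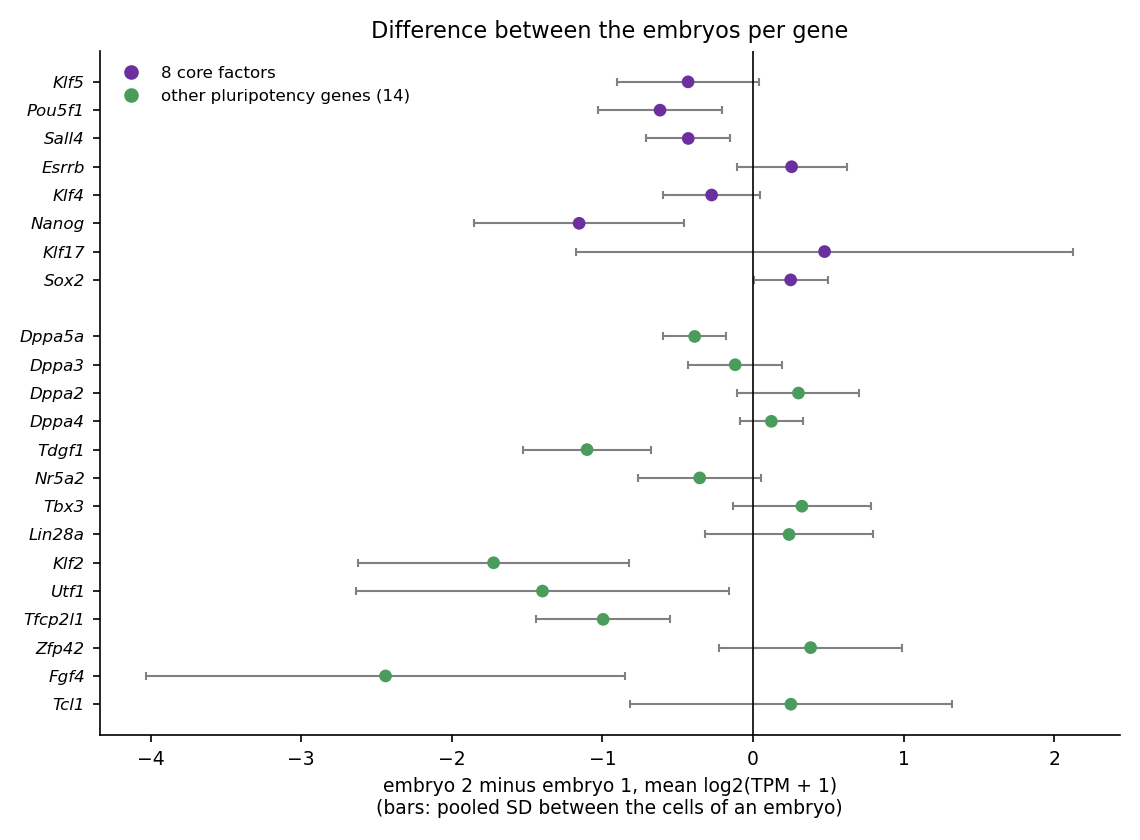
Points give, per gene, mean log2(TPM + 1) in embryo 2 minus that in embryo 1 and bars the pooled SD between cells of an embryo, for the 8 core factors (purple) and for the 14 other pluripotency genes with a mean TPM above 1 (green), each set in order of mean TPM. Nanog, Pou5f1 and Sall4 lie below 0 by more than their bars, as do Dppa5a, Tdgf1, Klf2, Utf1, Tfcp2l1 and Fgf4 among the others.

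Number range was the second way in which the cells differed. The median difference of the 8 factors between cells numbered 11 to 17 and 20 to 25 was 0.06 (SD between cells 0.34). Its sign was not stable. It was -0.17 with each cell centred as below, -0.10 within embryo 1 and 0.25 within embryo 2, all within that SD. The median over the 13612 genes, which unlike Sox2 have a mean TPM above 1, was 0.29. The number of detected genes also differed without overlap, at 12411 to 13319 in the cells numbered 11 to 17 and 11058 to 11960 in the others, and its part in these differences and in the isoform shares was not tested. Only Pou5f1 (0.73), Klf17 (1.78) and Klf5 (-0.57) differed by more than their pooled SDs of 0.35, 1.38 and 0.42. With each cell centred on its median over genes above TPM 1 in all 9 cells, a scaling added after the data were seen, these differences were 0.50, 1.55 and -0.79. Within embryo 2, which held 2 cells of the lower and 4 of the upper range, Pou5f1 and Klf17 were higher in every lower-range cell and Klf5 was lower. The 2 higher factors of 7 stand beside 19.1% of the 6860 genes, and the 1 lower beside 7.19%. In embryo 1 the range difference of Klf17 was -0.06, set by 1 cell of the lower range against 2, and that of Klf5 was -0.14.

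The shares of isoforms differed between the number ranges without overlap for Sall4 and Nanog and overlapped for Pou5f1, Klf5 and Esrrb. The transcript table listed 1 to 7 isoforms per factor, and the isoform values summed to the gene value within 0.01 TPM. Sall4 RNA was a mixture of spliced forms. Its full-length form Sall4-201 joins the first exon to exon 2 (chr2:168754434-168756800, 2367 bases), which encodes most of the zinc-finger clusters, and the shorter Sall4-202 skips that exon. The spliced sequences below show what separates the forms, with bases of the exon after the junction in capitals.
Sall4-201, first exon to exon 2 (chr2:168756800-168766912, minus strand, GRCm38): cggcggaggaacccgGTGCTCCAGTGAACT
Sall4-202, first exon to the exon after exon 2 (chr2:168752740-168766912, minus strand, GRCm38): cggcggaggaacccgGTCGTACCAGCCTCC
The exon-skipping Sall4-202 was the main form, at 136 ± 43.1 TPM and 77.3% ± 13.8 of Sall4 RNA (SD, n = 9 cells), beside 35.6 ± 22.8 TPM for Sall4-201 (SD, n = 9 cells). Its share was 61.4%, 49.7% and 71.1% in embryo 1 cell 1 and embryo 2 cells 2 and 3, and between 81.8% and 91.0% in the 6 cells numbered 20 to 25, so the ranges did not overlap. Sall4-201 itself was 72.0, 68.8 and 42.7 TPM in the 3 cells of the lower range and between 8.83 and 40.4 TPM in the others. Sall4-203, which keeps part of exon 2, was listed at 0 in every cell.

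Pou5f1 RNA was divided between Pou5f1-201, which starts at the promoter of the full-length gene, and Pou5f1-202, which starts at a first exon (chr17:35508805-35508833) just upstream of the shared second exon. The capitals below mark that shared exon.
Pou5f1-201, first 2 exons (chr17:35506483-35509103, plus strand, GRCm38): ccaactcccgaggagTCCCAGGACATGAAA
Pou5f1-202, first 2 exons (chr17:35508833-35509103, plus strand, GRCm38): cttcttcagaataggTCCCAGGACATGAAA
Pou5f1-201 took 58.1% ± 13.2 and Pou5f1-202 40.3% ± 13.1 of Pou5f1 RNA (SD, n = 9 cells). The Pou5f1-201 share ranged from 41.3% in embryo 1 cell 1 to 77.1% in embryo 1 cell 7, and the number ranges overlapped (41.3% to 60.2% and 48.5% to 77.1%). In embryo 1 cell 1, Pou5f1-202 reached 202 TPM and Pou5f1-201 143 TPM. Embryo 1 cells 6 and 7 held 153 TPM each of the long form, above that cell. The antisense gene Gm19553 overlaps Pou5f1 and was listed above 0 in 1 cell, at 14.3 TPM.

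Nanog-203 was the only Nanog form in the 6 cells numbered 20 to 25. In the 3 cells numbered 11 to 17, Nanog-201 was listed beside it, at 11.5 TPM in embryo 1 cell 1 and 3.16 and 5.97 TPM in embryo 2 cells 2 and 3, or 17.3% to 61.6% of Nanog RNA. Esrrb-203 carried 88.1% ± 12.1 and Klf5-201 98.6% ± 1.05 of their genes' RNA (SD, n = 9 cells), and Klf4 and Klf17 were each listed with 1 form above 0. In 2 of the 5 factors with more than 1 form above 0, Sall4 and Nanog, the main form took a smaller share in every lower-range cell. Among 5593 genes with 2 or more isoforms whose mean log2(TPM + 1) reached 3, 7.88% did so and 1.63% showed the reverse. Isoform values are estimates that divide shared reads among forms. The part of the protocol version, with the 3' bias of scRR1 given above, in these shares was not tested.

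**Figure D3:**
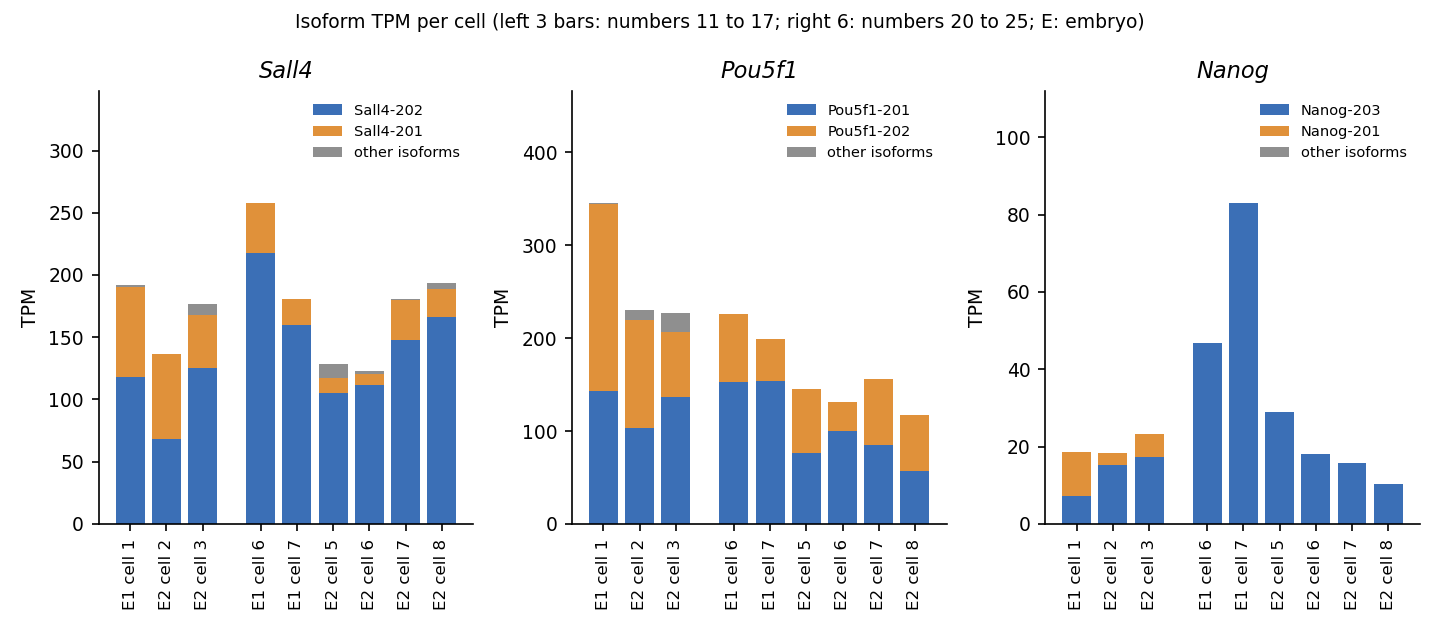
Stacked bars give the TPM of each isoform of Sall4, Pou5f1 and Nanog per cell, with the 3 cells numbered 11 to 17 on the left of each panel and the 6 numbered 20 to 25 on the right. Sall4-201 fills 24.1% to 50.3% of the bar on the left and 7.19% to 17.7% on the right, and Nanog-201 is seen only on the left.

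The replication state of each factor was read from bins of 40 kb in the same 9 cells. Bins were given for 7 of the 8 factors, and Nanog on chromosome 6 was not analysed here. All 7 were called unreplicated in the 3 cells of embryo 1. The paper places representative cells of embryo 1 in either G1 or G2/M phase, because their copy number was even across the genome. These calls can therefore not tell an unreplicated gene from a fully replicated one. In embryo 2 the 7 factors were replicated in 40 of 42 factor and cell combinations, beside 94.97% of the states of 9033 protein-coding genes with a mean TPM above 1. Pou5f1, Klf4, Klf5, Klf17 and Sall4 were replicated in all 6 cells, as were 74.6% of those genes. Sox2 was unreplicated in embryo 2 cell 3, 1 of the 3 cells in which its RNA was listed above 0. Esrrb spans 5 bins, and all 5 were unreplicated in embryo 2 cell 6, the cell with the lowest replication score of that embryo (62.4%). Its first bin, which holds the annotated start of the gene, was also unreplicated in cell 8, where 4 of the 5 bins were replicated. That start belongs to Esrrb-204, which was listed at 0 in cell 8. Esrrb-203, which made up all Esrrb RNA in cell 8, starts at chr12:86421644, past that bin. Esrrb TPM was 20.6 in cell 6, the lowest of all 9 cells, 35.9 in cell 8 and between 36.9 and 45.6 in the 4 cells with all bins replicated. In embryo 1, with all 5 bins called unreplicated, Esrrb TPM was between 26.8 and 33.5. A single cell of embryo 2 carried the unreplicated gene, so this order has no replicate check. Klf4 (26.8 TPM) and Sall4 (123 TPM), with all their bins replicated, were also lowest in that cell. Pou5f1, Nanog, Klf5 and Klf17 were not. The cell also had the fewest detected genes of the 9 cells (11058).

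**Figure D4:**
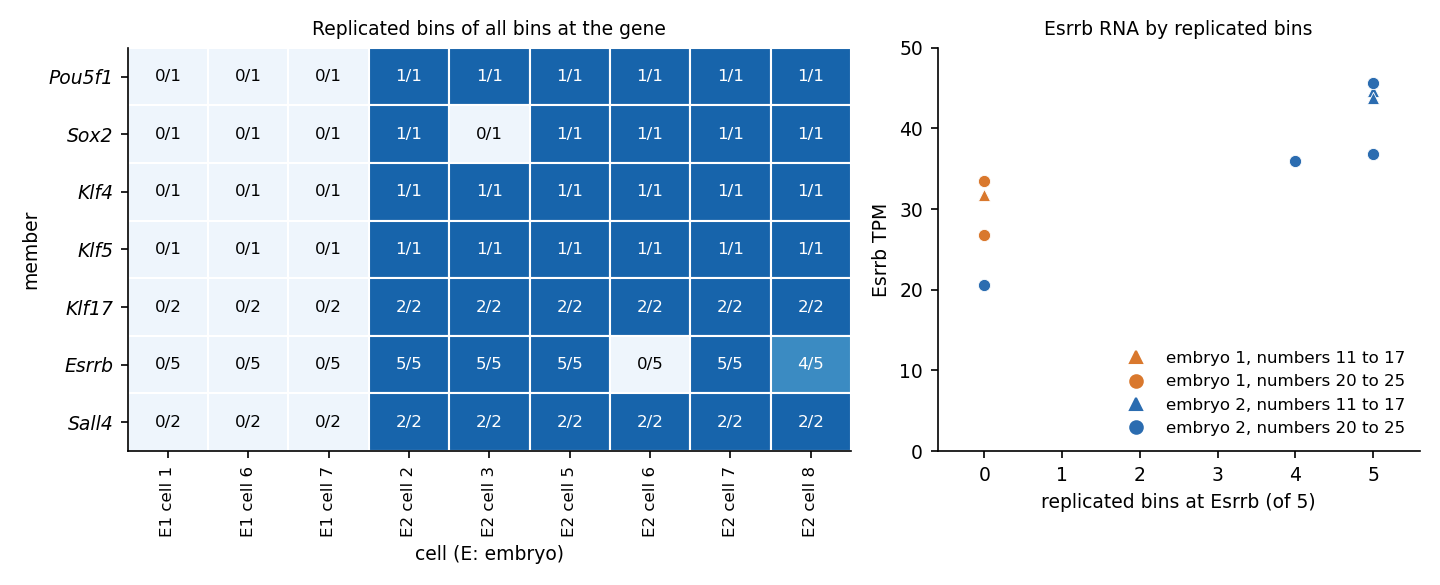
The left panel shows, for the 7 factors with bins and the 9 cells, how many of the 40 kb bins at each gene were called replicated, from none (pale) to all (dark). The right panel plots Esrrb TPM against its replicated bins, with 20.6 TPM in the embryo 2 cell with none and 35.9 to 45.6 TPM in the other 5 cells of embryo 2.

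Each factor was also placed within its own gene family. Of 17 Krüppel-like factor genes, 8 were detected in all 9 cells, 7 in some and 2 (Klf1 and Klf14) in none. Klf5 was the highest at 265 TPM, followed by Klf2, a partly redundant partner of KLF4 and KLF5, at 70.9 ± 45.3 and Klf4 at 35.1 ± 10.2 (SD, n = 9 cells). In the SOX family another gene than the core factor led. Of 19 genes, 12 were detected in no cell, Sox2 among them, and 3 in all 9. Sox15, a relative that can bind the same DNA with POU5F1, was the highest at 107 ± 29.5 TPM (SD, n = 9 cells) and lay between 61.1 and 153 TPM, and Sox13 and Sox12 followed at 14.5 and 9.05 TPM. Of 15 POU genes, Pou5f1 was followed by Pou6f1 at 13.9 and Pou2f1 at 5.65 TPM, and Pou3f2, Pou3f4, Pou4f2, Pou4f3 and Pou5f2 were listed at 0 in every cell. Sall4 stood beside Sall1 at 15.2 TPM, with Sall2 and Sall3 at 0 in every cell. Esrrb stood above Esrra at 9.05 TPM, and Esrrg was detected in no cell.

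**Figure D5:**
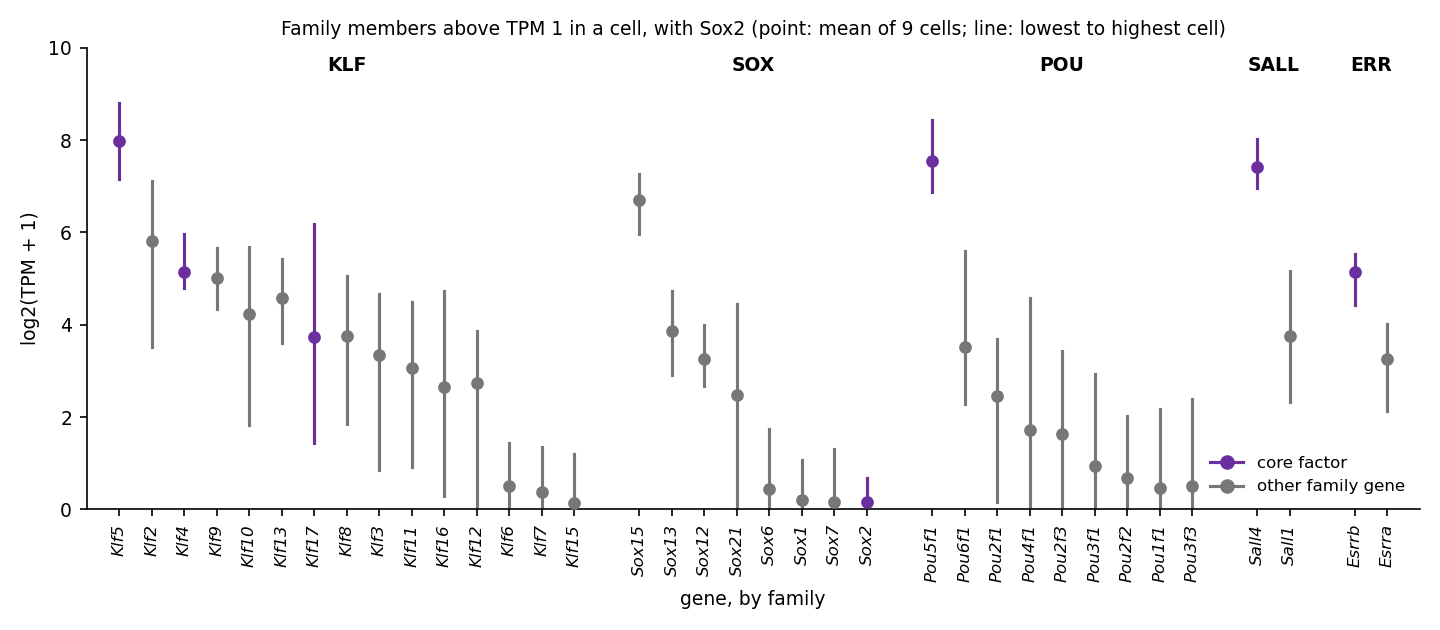
Points mark the mean log2(TPM + 1) of 9 cells and lines run from the lowest to the highest cell, for family genes above TPM 1 in at least 1 cell and for Sox2, grouped as KLF, SOX, POU, SALL and ERR genes. Core factors are purple. Pou5f1, Sall4, Esrrb and Klf5 head their families, whereas Sox15 heads the SOX family and Sox2 has the lowest mean TPM of the SOX genes drawn.

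Other genes of the pluripotency network were present more often than not. Of 18 such genes, 12 were detected in all 9 cells and 4 in some. Nr0b1 was listed at 0 in every cell. The small proteins Dppa5a and Dppa3, the latter a maternal protector of DNA methylation, were the most abundant at 2242 ± 446 and 1465 ± 331 TPM, followed by Dppa2 at 440.2 ± 129 TPM (SD, n = 9 cells). In 3 of the 12 genes of this list that were among the 6860, the cells of embryo 2 all lay under those of embryo 1, beside 2.57% of all 6860 genes. These 3 were named after their values were seen. Klf2 was 109 to 138 TPM in embryo 1 and 10.5 to 74.4 in embryo 2, Tfcp2l1 69.7 to 106 and 25.6 to 68.4, and Tdgf1, a co-receptor of NODAL, 147 to 185 and 47.5 to 113. The median difference over the 14 genes of this list with a mean TPM above 1 was -0.24, beside -0.43 over the 7 detected core factors.

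Genes that act with or upstream of the factors were also measured. Of 13 genes of the NuRD complex and its SALL4 and POU5F1 partners, 12 were detected in all 9 cells and Mta1 in 8, with Rbbp7 (299 TPM), Mta3 (214 TPM) and Hdac1 (201 TPM) highest. In 5 of the 12 of these genes that were among the 6860, the cells numbered 11 to 17 all lay above the others, beside the 8.85% of all genes given above. Of 11 genes of LIF and BMP signalling, 5 were detected in all 9 cells and 6 in some. The BMP target Id3 was the highest at 314 ± 110 TPM (SD, n = 9 cells), followed by Socs3, the feedback inhibitor of LIF and STAT3 signalling, at 53.1 ± 20.4 and the BMP receptor Bmpr1a at 25.2 ± 12.6 TPM (SD, n = 9 cells). Of 6 genes of the later, primed state, Dnmt3b was detected in all 9 cells at 20.96 ± 12.4 TPM (SD, n = 9 cells), Otx2 and Pou3f1 each in 4, and Fgf5 and Sox3 were listed at 0 in every cell.

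Lineage and contaminant markers were read in the same cells. Of 9 trophectoderm and primitive endoderm genes, Gata6 (159 ± 40.7 TPM), Tfap2c (83.2 ± 18.4 TPM) and Gata4 (21.96 ± 25.3 TPM; SD, n = 9 cells) were detected in all 9 cells, while Elf5 and Sox17 were detected in none. RNA of the oocyte was present, with 5 of 6 markers detected in all 9 cells and a summed level of 44.6 to 65.6 TPM in embryo 1 and 18.5 to 81.0 in embryo 2. Of 8 granulosa cell markers, 7 were detected in no cell (Fshr, Amh, Cyp19a1, Has2 and Inha at 0 throughout), and Amhr2 alone was listed at 9.73 to 35.4 TPM. The 4 sperm markers summed to at most 1.62 TPM in a cell.

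The cell-to-cell patterns of the 7 detected factors were set side by side. Pearson's r of log2(TPM + 1) over the 9 cells ranged from -0.33 (Klf5 and Esrrb) to 0.70 (Klf4 and Sall4) for 21 pairs, with a median of 0.24, and the median over all pairs of 7216 genes detected in every cell was 0.06. The cells share embryos and number ranges, so these values are descriptions. The gene most like each factor over the 9 cells was Slc7a6 for Pou5f1 (r = 0.97), Rnaseh2c for Nanog (0.94), Wtap for Klf4 (0.93), Ube2q2 for Klf5 (0.94), Pelp1 for Klf17 (0.94), Fbxl14 for Esrrb (0.96) and Pnpt1 for Sall4 (0.93). Each was the best of 7216 genes. No core factor was the nearest gene of another.

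Some promoters of the factors carry motifs that other members are known to bind. RefSeq promoter windows (GRCm38.p6, 250 bases before to 50 after a start site) were at hand for 6 of the 8 factors. A joint octamer and Sox site, searched on both strands as TTTGCATNACAATG, the letters known from Nanog, was found in 2 of 32851 windows, both of Nanog. Both windows hold the same site of Nanog, and its match was fixed by the choice of letters. The Sox core alone, ACAATG on either strand, occurred in 12.6% of windows, among them 5 windows of Nanog, Klf17, Esrrb and Pou5f1. Pou5f1, Nanog and Esrrb had 2 windows each, so a count of genes cannot be set beside that share. The Nanog match lies within the joint site, so it too was fixed by the choice of letters. The Esrrb match lies at the start of Esrrb-204, not of the main form Esrrb-203. The Pou5f1 match lies before the internal start of short forms such as Pou5f1-202, not at the promoter of Pou5f1-201. The octamer core alone, searched as ATGCAAA on both strands, occurred in 4.63% of windows, those of Sox2 and Nanog among them, and it overlaps the joint site. Capitals mark the match.
Nanog promoter, joint octamer and Sox site (chr6:122707390-122707451, plus strand): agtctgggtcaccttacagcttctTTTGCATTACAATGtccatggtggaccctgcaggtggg
Sox2 promoter, octamer core (chr3:34649872-34649926, plus strand): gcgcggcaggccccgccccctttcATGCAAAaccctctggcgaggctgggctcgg
In these 9 cells Nanog was detected in all and Sox2 in none. The Krüppel-like factor GT box, GGGTGTGG on either strand, was found in 3.56% of windows and among the factors in that of Klf17. The ESRRB motif TCAAGGTCA was found in 0.423% of windows and in none of the factors. A match of letters is a description and no measure of binding.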

How the data were processed

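RNA and replication state of 13 cells were described by the labels in 26 samples. The deposited tables held 9 of these cells, and the other 4 were not analysed here. Each table also had 14 columns of no label in this series, which were not used. All 9 RNA headers read embryo 1 cell 7, so RNA columns were matched to samples by the closing number of the titles. No pair of RNA columns was identical.

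Reads per cell were adjusted by the authors to about the same number, mapped to mm10 with Hisat in the ramdaq pipeline and turned into TPM estimates of 55487 genes and 142699 transcripts with RSEM and GENCODE M25. TPM keep no read depth, so no counting interval was given. For DNA, the authors aligned reads with bwa (BWA 0.7.17-r1188 per the labels), removed blacklisted regions and called each 40 kb bin with AneuFinder, and deposited a replication state score of 1, -1 or 0 (replicated, unreplicated or no data).

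Symbols were matched for 55141 gene identifiers. Differences were taken between means of log2(TPM + 1), which understates changes of genes with low TPM, and set beside the pooled SD between cells. Genes were counted as not overlapping among those whose mean log2(TPM + 1) reached 3. A gene took the sign of the mean state of its bins, placed by GENCODE M21 (GRCm38, the same build). The scripts were tested on simulated data. The 8 factors, the gene lists and the split by number range were chosen with earlier results of these data known. All 8 factors were named; of each list, the 3 genes with the highest mean TPM and those detected in no cell (at most 6), and for each factor the gene with the highest r. A few listed genes are not reported here. Alternatives changed the pseudocount, the scaling, the detection limit, the cells kept, the isoform denominator and the bin of a gene. Analyses used Python 3.11.15, numpy 2.4.6, pandas 2.3.3 and matplotlib 3.10.9.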

Additional observations from a re-analysis of the deposited data

How the results depend on the processing

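Neither embryos nor cells replicate a condition, so alternatives were read by direction and by the SD between cells. The median difference of the 8 factors between embryos (-0.35) was 0.15 in the cells numbered 11 to 17, where embryo 1 had 1 cell, and -0.47 in those numbered 20 to 25. Leaving out single cells gave -0.48 to -0.06. Its other alternatives moved it by less than the SD. The share of genes whose cells do not overlap between embryos, 3.70%, was 2.15% over all genes above 0 in any cell, since that set adds genes at or near 0. Of the 8 single factors, Klf4 and Klf17 changed the sign of their embryo difference when 1 cell was left out (0.05 without embryo 1 cell 6 and -0.33 without embryo 1 cell 7), and the other 6 kept theirs under all 13 alternatives. These 13 did not include the split by number range. Within the cells numbered 11 to 17 the Nanog difference was 0.14, the reverse of its sign over all cells. The Sox2 difference of 0.25 was 1.17 with a pseudocount of 0.1. The share of main isoforms in the gene table and the number of detected values (61 to 66 of 72 at TPM limits of 5 and 0) stayed close. So did the replication states by annotated gene start (39 instead of 40), which for Esrrb is the start of the minor form Esrrb-204. The median difference between number ranges (0.06) turned to -0.17 with each cell centred, to -0.0037 with a pseudocount of 5 and to -0.10 within embryo 1, and lay between 0.0002 and 0.13 without single cells, all within the SD. The number range differences of the single factors moved by less than their SDs under both scalings, which were added after the data were seen. No paired analysis was possible because the results come from no test, and a cell number pairs no cells across embryos. Embryo differences within each number range are given as values above. TPM keep no depth, which leaves the detection limit of Sox2 unknown.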

Other observations

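Single blastomeres stood at the edge of several lineage and network genes, all named after their values were seen. Embryo 1 cell 1 held the highest Pou5f1 (346 TPM) and also the highest Cdx2 (9.80 TPM, at most 1.22 in the other 8 cells), Gata3 (42.5 TPM, at most 14.6 elsewhere) and Utf1 (177 TPM, at most 89.2 elsewhere). Cdx2 and Gata3 encode trophectoderm factors. Among the other lineage genes listed, Tfap2c (107 TPM) was also highest in embryo 1 cell 1, whereas Eomes and Elf5 were not. Eomes was 0.35 TPM there and 4.59 TPM in embryo 2 cell 5. Elf5 was 0.49 TPM there and 0.88 TPM in embryo 2 cell 8. Embryo 1 cell 1 also had the most detected genes (13319) and was the only cell of embryo 1 in the lower number range. The part of either in these values was not tested. Embryo 1 cell 7 held the highest Nanog (83.0 TPM) together with the highest Fgf4 (51.0 TPM, at most 26.1 elsewhere), the growth factor that later separates epiblast from primitive endoderm, and the highest Id1 (73.6 TPM, at most 9.34 elsewhere). Its Klf17 was 2.53 TPM. Among the other pluripotency genes detected in all 9 cells, Dppa5a (3102 TPM) and Tdgf1 (185 TPM) were also highest in this cell. Zfp42 (18.6 TPM), Tbx3 (37.1 TPM) and Lin28a (38.7 TPM) were lowest in it. Embryo 2 cell 2 held the highest Klf17 (71.8 TPM) and the highest Gata4 (85.9 TPM, at most 26.5 elsewhere). Otx2, a gene of the primed state, was 34.8 TPM in embryo 1 cell 6 and at most 2.84 elsewhere. Each of these is 1 cell, and none was tested.

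Hdac2, a subunit of NuRD, ranged from 20.0 to 422 TPM within embryo 2, whereas its paralogue Hdac1 ranged from 147 to 267 TPM in the same 6 cells.

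Amhr2, a receptor of granulosa cells, was listed at 9.73 to 35.4 TPM in all 9 cells, while Fshr, Amh, Cyp19a1, Has2 and Inha were at 0 in every cell.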
